A study of Bos grunniens with 36 samples.

Results

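The mammary gland of 4 yaks at day +120 after calving was compared with the gland of the same animals 30 days before calving (day -30). These are 8 of the 36 arrays of a lactation series on yak (Bos grunniens): the 4 whose titles give day +120 and the 4 whose titles give day -30, matched by the number of the animal. All animals were female, and no treatment, genotype or age is given for either group. Parenchyma was cut from a rear gland of the udder at each biopsy, left and right in turn, with visible fat and connective tissue removed. RNA of each biopsy was hybridised in 1 colour (Cy3) to 1 array of a cattle design, so yak transcripts were read by cattle probes. A value is the deposited log2 signal less that of the 75th percentile of its array, so that 0 marks the 75th percentile, and a difference is day +120 minus day -30 on the log2 scale.

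The day of an array has 2 records that contradict each other. Every one of the 36 columns of the value table equals the signals of 1 scanner file, and 0 of the 36 files are deposited under the sample that heads the column. The day of the 2 records is the same for 9 columns and differs for 27, and the animal is the same for 0. The days below are those of the value table. Of 105 gene results checked under the record of the scanner files, 14 lost their call with the sign kept, 7 gained one and 6 turned sign. Values under that record are given for some results only, so others may change under it too. By the table's days each of the 9 slides held the 4 arrays of 1 day, so slide and day cannot be told apart. The 4 arrays of day -30 had a 75th percentile of 4854 to 5752 intensity units, against 2197, 1178, 2619 and 6450 for animals 1 to 4 at day +120.

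The day +120 array of animal 4 stands apart from the other 3 of its day. Pearson's r over all 34997 probes of the value table was 0.844 to 0.935 between it and animals 1 to 3 at day +120. It was 0.933 to 0.958 between this array and the day -30 arrays. Animals 1 to 3 correlated at 0.899 to 0.961 with each other at day +120 and at 0.887 to 0.944 with day -30. The 9 milk protein genes averaged -0.68 on this array, against 6.58, 7.36 and 6.40 on the arrays of animals 1 to 3. On the day -30 arrays they averaged 2.47 to 3.81. Results are therefore given with all 36 arrays and again without this array, which leaves 3 animals at day +120.

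In late pregnancy the gland is still growing: the alveolar epithelium divides under placental and ovarian hormones and has begun to express milk genes. In lactation cell division is low, and the alveolar cells make casein, whey proteins, lactose and milk fat, which is packed into droplets wrapped in plasma membrane. Calcium is moved into milk by plasma membrane pumps, and the lactating gland is a source of the hormone PTHLH, which draws calcium from bone.

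The probes are 60-base oligonucleotides, and those of 4 genes that carry the main patterns are printed whole, 5′ to 3′ in lower case: a casein, a hormone gene that was higher at day +120, and a dynein and a mitosis gene that were lower. Positions are those in the scanner files for the cattle assembly UMD 3.1. The probes of CSN1S1 and DNALI1 span 1593 and 1962 bases of the genome and so cross an intron, and those of PTHLH and CDC20 lie within an exon. Of the forward frames, 1 is free of stop codons in CSN1S1 and PTHLH, and 2 in DNALI1 and CDC20. None was compared with a coding sequence.
CSN1S1, chr6:87150932-87152524, + strand: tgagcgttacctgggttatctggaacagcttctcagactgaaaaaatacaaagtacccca
PTHLH, chr5:82253879-82253938, + strand: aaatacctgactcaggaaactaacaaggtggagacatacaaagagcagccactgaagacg
DNALI1, chr3:108918186-108920147, - strand: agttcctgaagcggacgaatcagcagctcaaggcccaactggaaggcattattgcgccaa
CDC20, chr3:103238636-103238695, - strand: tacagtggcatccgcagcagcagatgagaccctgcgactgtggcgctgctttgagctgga

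Between the 2 days 756 of 20108 genes tested changed (3.76%), 214 upward (1.06%) and 542 downward (2.7%), by limma with animal as a random block at an adjusted p under 0.05. Counts of calls in the gene lists below are to be set beside these shares of all genes. Without the day +120 array of animal 4, 1961 genes were called (9.75%), 951 higher (4.73%) and 1010 lower (5.02%), and 735 of the 756 were among them with the same direction. The median difference over all genes was 0.0074 with that array and 0.008 without it. Leaving out a whole animal gave 200 calls without animal 1, 221 without animal 2, 37 without animal 3 and 1375 without animal 4. Under the days of the scanner files 2099 genes were called, 466 of them shared with the 756. For 1810 genes (9.0%) the 4 values of day +120 did not overlap the 4 of day -30, 693 of them higher (3.45%) and 1117 lower (5.56%). In these bulk biopsies, fewer cells of a type and less RNA per cell cannot be told apart.

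The 10 largest rises among genes higher in all 4 animals were PHYHIPL, GALNTL2, PCP4, PTHLH, RRAD, CA4, ATP2B2, ENPP3, CXCL3 and HPSE. Their differences ran from 3.29 for HPSE, which encodes heparanase, to 6.83 for PHYHIPL. GALNTL2, a glycosyltransferase that starts O-linked sugar chains, lay at -4.29, -7.06, -4.63 and -3.56 in animals 1 to 4 at day -30 and at 1.67, 3.16, 2.60 and -2.29 at day +120. All 4 day +120 values were above all 4 before calving, with animal 4 the lowest of its day. The gene rose by 6.17 ± 0.94 (SE, n = 4 a day; adjusted p = 0.00032), or 71.9-fold, and by 7.35 without the array of animal 4 (adjusted p = 5.92e-06).

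PTHLH, the parathyroid hormone-like hormone, lay at -0.24, -0.95, -0.62 and -1.33 at day -30 and at 3.10, 5.46, 4.09 and 2.47 at day +120. The groups did not overlap, and animal 2 was the highest. It rose by 4.57 ± 0.91 (adjusted p = 0.00308), a 23.7-fold difference, and by 5.03 without the array of animal 4. ATP2B2, the plasma membrane calcium pump of milk secretion, lay at -7.46, -6.14, -6.81 and -5.22 at day -30 and at -2.99, -0.29, -1.70 and -4.39 at day +120. The day -30 probe was well above background on 2 of 4 arrays only, and the groups were apart. ATP2B2 rose by 4.06 ± 0.88 (adjusted p = 0.00555), but the mean of all its 3 probes differed by 1.89 and did not pass (adjusted p = 0.0942).

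RRAD, a small GTPase of the Ras family, went from -1.61, -2.93, -1.65 and -2.36 to 2.51, 3.06, 2.71 and -0.42. The groups were apart, with animal 4 far below the other lactation arrays. Its rise was 4.10 ± 0.66 (adjusted p = 0.000591). CA4, a membrane-bound carbonic anhydrase, went from -6.50, -6.63, -5.42 and -5.15 to -1.80, 0.22, -0.70 and -5.10. It rose by 4.08 ± 1.04 (adjusted p = 0.0215), with a difference of 0.05 in animal 4 against 4.70 to 6.85 in the others.

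For PHYHIPL, 0 of 4 arrays were well above background before calving and 3 of 4 at day +120. Its values were -8.69, -7.17, -8.92 and -7.86 before calving and -0.71, 1.40, 1.35 and -7.35 after. Animal 4 lay among the day -30 values, so the groups overlapped. Set against the dimmest signals marked well above background on the day -30 arrays, its day +120 mean was 54.5-fold higher, a ratio that was not tested. The limma difference passed (adjusted p = 0.0449), and it was not called with no replicate block (adjusted p = 0.0536). The chemokine CXCL3, which attracts neutrophils, rose by 3.51 ± 0.77 (adjusted p = 0.0065), and ENPP3, an ectoenzyme that splits nucleotides, by 3.86 ± 0.76 (adjusted p = 0.00308), both with groups apart. PCP4, a calmodulin-binding peptide, rose by 5.12 ± 1.39 with overlapping groups (adjusted p = 0.0322).

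The largest falls were RNASE3, ELP, RSPO1, DLGAP5, DUSP9, SERPINA11, KIAA0101, CCNB1, DNALI1 and KLK6, all with groups that did not overlap. RSPO1, a secreted R-spondin that strengthens Wnt signalling, lay at 2.49, 2.38, 1.80 and 2.18 at day -30 and at -3.27, -5.11, -4.23 and -1.08 at day +120. Day -30 values were within 1 log2 unit of each other, while animal 4 was again the array nearest to them after calving. RSPO1 fell by 5.63 ± 0.71 (adjusted p = 2.97e-05), a level 49.7-fold lower, and its difference was -6.39 without the array of animal 4 (adjusted p = 2.26e-06).

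DNALI1, an axonemal dynein light chain, gave the smallest adjusted p of the 20 genes. Its values were 0.14, 1.19, 0.25 and -0.35 at day -30 and -4.54, -4.34, -4.79 and -4.23 at day +120. All 4 animals lay close together at day +120, animal 4 included, and the gene fell by 4.78 ± 0.33 (adjusted p = 7.74e-11). The probes of RSPO1 (chr3:108874810-108874869) and DNALI1 (chr3:108918186-108920147) lie in the same region of the cattle chromosome.

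DUSP9, a phosphatase that switches off MAP kinases, went from 0.45, -1.92, -1.12 and -1.85 to -6.38, -5.47, -6.52 and -5.92. It fell by 4.96 ± 0.47 (adjusted p = 1.3e-07), and at day +120 it was well above background on 1 of 4 arrays. ELP lay at 4.62, 3.94, 4.28 and 3.77 before calving and at -1.59, -1.17, -2.88 and -2.93 at day +120. This was a change from well over the 75th percentile of the array to below it in every animal, a fall by 6.30 ± 1.24 (adjusted p = 0.00308). RNASE3, a secreted ribonuclease, went from 3.78, 2.43, 1.79 and 2.89 to -3.24, -1.39, -3.20 and -7.07. It fell by 6.44 ± 1.68 (adjusted p = 0.0245), and it was not called without the array of animal 4, with a difference of -5.18 (adjusted p = 0.0559). The protease inhibitor gene SERPINA11 fell by 4.95 ± 1.00 (adjusted p = 0.00355), and KLK6, a kallikrein protease, by 4.71 ± 1.04 (adjusted p = 0.00656).

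**Figure D1:**
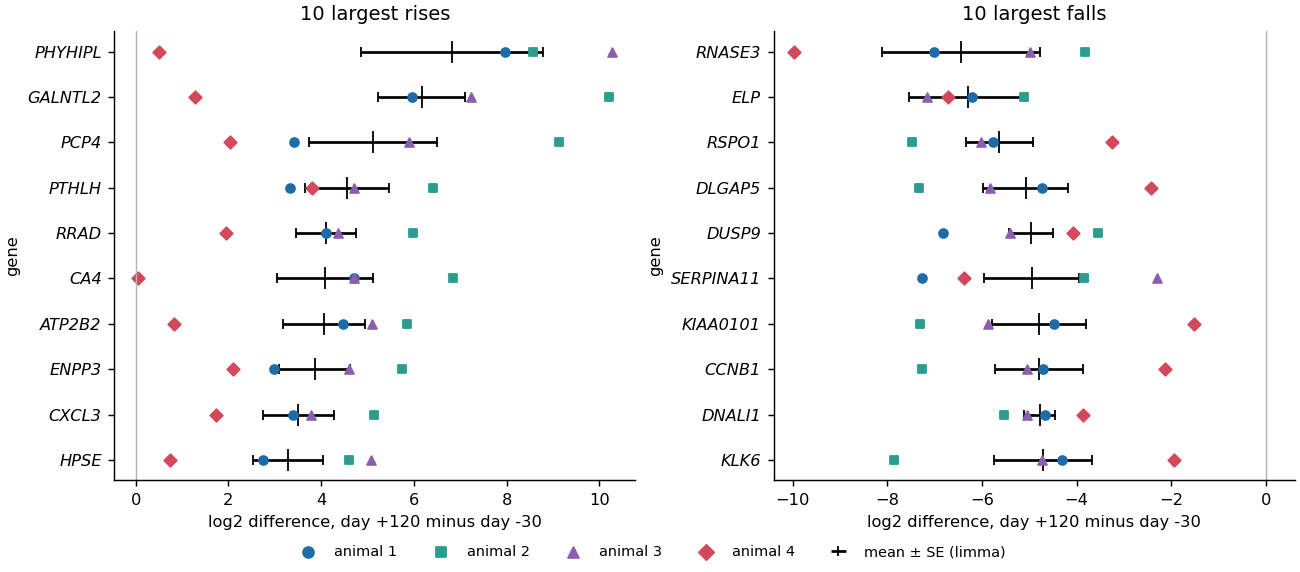
Log2 difference, day +120 minus day -30, of the 10 largest rises (left) and falls (right); coloured points are the 4 animals and the black bar is the limma mean with its SE. Animal 4 has the smallest rise for 9 of the 10 genes on the left, as with CA4, where its point lies at the zero line, while the differences of DNALI1 lie between -5.53 and -3.87 in the 4 animals.

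Of these 20 calls, DNALI1 was kept in every setting tried, and GALNTL2, RRAD, RSPO1 and DUSP9 in every one but the fit on the 8 compared arrays alone with animal as a fixed block. That fit called 3 genes in all, among them DNALI1 and ELP. PHYHIPL and PCP4 were not called with normexp or an ordinary linear model, nor, with HPSE, by the days of the scanner files, nor, with CA4, with brightness as a covariate. Without animal 1, 4 of the 10 rises and 5 of the 10 falls passed. The corresponding numbers were 2 and 6 without animal 2, 2 and 3 without animal 3, and 10 and 9 without animal 4.

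Cell division was the list with the most calls. Of its 35 measured genes 26 fell, 0 rose and 9 did not pass, against 2.7% of all genes lower, and the median difference was -2.53 against 0.0074 over all genes. For 29 of the 35 the groups did not overlap, against 5.56% of all genes. Without the day +120 array of animal 4 the count was 30 and the median -2.81. It was 8 without animal 1, 12 without animal 2, 1 without animal 3 and 28 without animal 4, with medians between -3.02 and -2.34. The limma fit on the 8 compared arrays alone with animal as a fixed block, which called 3 of all genes (3119 at an unadjusted p under 0.05), called 0 of the 35, with the same median of -2.53.

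CCNB1, the mitotic cyclin B1, lay at -0.33, -0.18, -0.34 and -0.95 at day -30 and at -5.05, -7.44, -5.39 and -3.09 at day +120. Every animal was lower at day +120, animal 4 the least, and the gene fell by 4.79 ± 0.93 (adjusted p = 0.00245). CCNA2, the cyclin of S phase and early mitosis, went from -0.78, -0.21, -0.45 and -0.98 to -5.65, -5.99, -5.82 and -2.19. KIF20A, a kinesin of the dividing cell's midzone, went from -1.47, -1.78, -1.74 and -2.58 to -6.31, -6.42, -6.05 and -3.81. For both genes animals 1 to 3 were nearly equal at day +120 and animal 4 stood well above them, and the falls were by 4.31 ± 0.88 (adjusted p = 0.00362) and by 3.76 ± 0.56 (adjusted p = 0.000311).

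CDC20, which activates the ligase that ends metaphase, lay at 0.86, 0.59, 0.59 and -0.66 before calving and at -3.29, -3.34, -3.43 and -1.58 at day +120. It fell by 3.26 ± 0.50 (adjusted p = 0.000323). The spindle and kinetochore genes DLGAP5, ASPM, BUB1 and CENPE fell by 5.08, 4.29, 4.09 and 3.92, and KIAA0101, which binds the replication clamp PCNA, fell by 4.80. Most of these lay near the background at day +120: DLGAP5, CCNA2, ASPM, CENPE and KIF20A were well above it on 1 of 4 arrays each. The list averaged -3.80, -3.74 and -3.66 in animals 1 to 3 at day +120, -2.12 in animal 4, and between -1.23 and -0.63 at day -30.

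The casein genes and PAEP were already bright before calving, and LPO was not. None of 9 milk protein genes passed the test with all arrays (median 1.48). CSN1S1, the alpha-S1 casein, lay at 5.23, 4.28, 5.69 and 4.39 at day -30 and at 7.83, 8.95, 7.70 and 0.76 at day +120. Animals 1 to 3 were above every day -30 value and animal 4 was below all of them. The difference was 1.41 ± 1.39 (adjusted p = 0.631), and 3.20 without the array of animal 4 (adjusted p = 0.0999).

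CSN3, the kappa casein that coats the micelle, lay at 5.45, 5.64, 5.93 and 4.92 at day -30 and at 7.95, 8.95, 7.74 and 4.19 at day +120. Its difference of 1.72 ± 0.80 did not pass with all arrays (adjusted p = 0.233) and passed without the array of animal 4, at 2.71 (adjusted p = 0.0206). CSN1S2, the alpha-S2 casein, differed by 2.56 ± 1.45 with all arrays (adjusted p = 0.346) and rose by 4.46 without that one (adjusted p = 0.0299). CSN2, the beta casein, differed by 0.54 ± 1.48 (adjusted p = 0.887) and by 2.72 without the array (adjusted p = 0.156), and PAEP, the beta-lactoglobulin, by 0.61 ± 1.09 (adjusted p = 0.816) and 2.17 (adjusted p = 0.134). Under quantile normalization the differences of CSN2 and PAEP were -1.25 and -0.87.

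LALBA, the whey protein that makes galactosyltransferase produce lactose, spread widely among the animals. It lay at 3.68, -0.31, 3.62 and 3.08 before calving and at 6.72, 7.41, 6.14 and -4.27 at day +120, a difference of 1.48 ± 1.90 (adjusted p = 0.732). LPO, the lactoperoxidase of milk, lay at -5.49, -5.36, -4.65 and -6.31 at day -30 and at 2.54, 4.88, 3.76 and -6.91 at day +120. Animals 1 to 3 were thus far above every day -30 array, and animal 4 below all 4. The difference of 6.52 ± 1.98 missed the threshold (adjusted p = 0.0588), and was 9.16 without the array of animal 4 (adjusted p = 0.00146). LTF, the iron-binding lactoferrin, was higher in all 4 animals, animal 4 included, by 1.49 ± 0.84, which did not pass (adjusted p = 0.343). Without that array 3 of 9 milk protein genes rose, against 4.73% of all genes. The count was 7 of 9 without animal 4 altogether and 8 of 9 without its day +120 and +180 arrays. All these settings drop the day +120 array with the lowest milk protein values. Leaving out that array was chosen after those values were seen, so the counts are no independent test of a rise. The median of the 9 differences was 1.48 with all arrays and -1.50, with 0 calls, when the brightness of the arrays was a covariate in the limma fit.

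**Figure D2:**
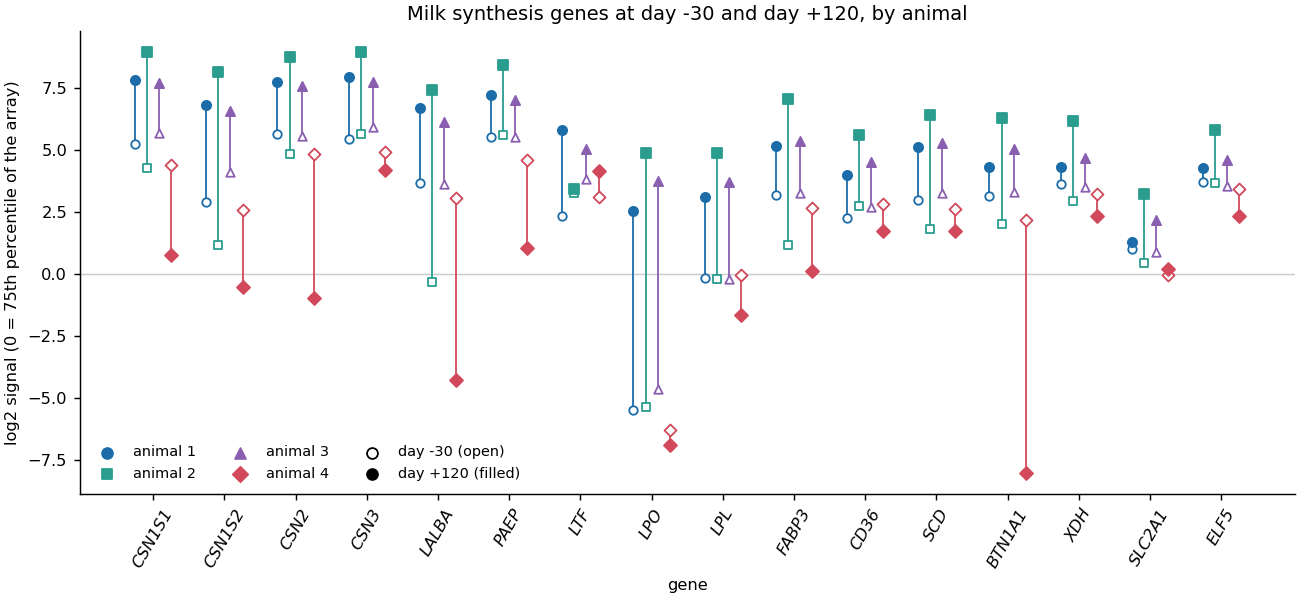
Log2 signal of 16 milk synthesis genes, open symbols for day -30 and filled for day +120, with a line joining the arrays of 1 animal. Animals 1 to 3 are higher at day +120 for all 16 genes, while the filled diamonds of animal 4 lie below its open ones for all but LTF and SLC2A1, down to -8.03 for BTN1A1.

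Genes of fatty acid uptake had 0 calls of 18 with all arrays (median 0.67) and 3 higher without the array of animal 4 (median 1.04). LPL, the lipase that frees fatty acids from plasma lipoproteins, lay at -0.18, -0.19, -0.19 and -0.05 at day -30 and at 3.10, 4.88, 3.71 and -1.66 at day +120. The 4 day -30 values were almost equal, and animal 4 left them in the other direction from animals 1 to 3. Its difference was 2.66 ± 1.38 (adjusted p = 0.293) with all arrays and 4.12 without that one (adjusted p = 0.0482). The fatty acid carrier CD36 differed by 1.32 (adjusted p = 0.28) and 2.08 (adjusted p = 0.0348), and ACSL1, which activates long-chain fatty acids, by 1.25 (adjusted p = 0.21) and 1.86 (adjusted p = 0.0267). FABP3, the binding protein for fatty acids in the cytosol, differed by 1.85 ± 1.35 (adjusted p = 0.489).

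In fatty acid synthesis and desaturation 1 of 16 genes rose, against 1.06% of all genes. This was ME1, the malic enzyme that supplies NADPH. It lay at -3.25, -3.08, -3.04 and -3.15 at day -30 and at -2.18, -2.49, -1.86 and -1.57 at day +120. The groups were apart with animal 4 the highest, and the rise was 1.10 ± 0.28 (adjusted p = 0.0186). The 16 genes had 0 calls with the mean of all probes or normexp, and 0 without animal 1, 3 or 4. The rate-limiting carboxylase ACACA, the synthase FASN and the desaturase SCD differed by 0.61, 0.62 and 1.98 and did not pass (adjusted p = 0.713, 0.684 and 0.277).

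Of the triacylglycerol and fat globule genes 0 of 19 passed with all arrays (median 0.90) and 4 rose without the array of animal 4 (median 1.74): AGPAT6, CIDEA, MFGE8 and PNPLA3. AGPAT6, which adds the first acyl chain to glycerol phosphate, lay at 2.13, 1.37, 1.75 and 1.41 before calving and at 3.50, 4.86, 3.67 and 1.80 at day +120. It was higher in each animal, by 1.79 ± 0.61 (adjusted p = 0.0968) and by 2.37 without the array (adjusted p = 0.0152). BTN1A1, the butyrophilin of the globule membrane, had 3.15, 2.04, 3.29 and 2.18 at day -30 and 4.33, 6.30, 5.03 and -8.03 at day +120, where the probe was not well above background in animal 4. Its difference turned from -0.76 with all arrays to 2.49 without that one, and neither passed (adjusted p = 0.895 and 0.422). XDH, the oxidoreductase that partners it at the membrane, differed by 1.05 ± 0.65 (adjusted p = 0.394), and DGAT1, which adds the last acyl chain, by 0.26 ± 0.29 (adjusted p = 0.679).

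Among 12 lipogenic regulators 1 passed, NR1H3, the liver X receptor alpha, which went from 1.36, 0.75, 1.30 and 0.84 to 1.71, 1.75, 1.60 and 1.58. The 4 lactation values lay within a narrow range above all day -30 values, a rise of 0.60 ± 0.17 (adjusted p = 0.0412). The regulators SREBF1, THRSP, INSIG1 and PPARG differed by -0.05, 0.24, 1.17 and 0.31, all with overlapping groups and no call. In cholesterol synthesis 1 of 21 genes rose, TM7SF2, a sterol reductase, from -3.79, -4.29, -3.60 and -4.71 to -2.32, 0.83, -0.49 and -2.80. The difference was 2.90 ± 0.62 (adjusted p = 0.00504), and animal 2 was the highest. The 21 genes had 0 calls without animal 2 and 0 without animal 3. Without the array of animal 4, 4 of the 21 were higher, PMVK and SC5DL among them by 2.57 and 1.92.

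Glucose uptake and lactose synthesis had 0 calls of 12, with all 12 differences above 0 and a median of 0.70. SLC2A1, the main glucose transporter of the gland, lay at 0.99, 0.44, 0.87 and -0.05 before calving and at 1.30, 3.25, 2.16 and 0.19 at day +120. It was higher in each animal by amounts that differed widely, by 1.16 ± 0.52 on average (adjusted p = 0.215), and by 1.68 without the array of animal 4 (adjusted p = 0.0387). The amino acid transporters had 0 calls of 12. SLC38A2, a carrier of neutral amino acids, had groups apart and a difference of 1.11 ± 0.34 (adjusted p = 0.0591), and SLC6A14 was lower in each animal, by -2.20 (adjusted p = 0.116). Calcium and zinc transport had 2 calls of 16, both higher, PTHLH and ATP2B2.

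Hormone signalling of lactation had 0 calls of 17 and a median of -0.04. The prolactin receptor PRLR lay at -0.64, -1.11, -0.81 and -0.66 at day -30 and at -0.71, -0.49, -0.67 and -1.65 at day +120, so the groups overlapped, with a difference of -0.08 ± 0.44 (adjusted p = 0.947). STAT5A, the transcription factor under that receptor, differed by -0.82 ± 0.40 (adjusted p = 0.263), ELF5, an alveolar transcription factor, by 0.67 ± 0.63 (adjusted p = 0.608). The estrogen receptor ESR1 was dim at both days, at -6.20, -6.17, -5.84 and -6.23 and at -5.71, -4.19, -4.16 and -4.52. Its groups were apart, and the difference of 1.47 ± 0.44 just missed the threshold (adjusted p = 0.0538). Of 16 growth factor and Wnt genes 1 passed, RSPO1. WNT5B and IGF1 were lower in all 4 animals, by -1.24 and -0.86, without passing (adjusted p = 0.121 for both), and IGFBP5, which binds insulin-like growth factors, differed by -0.07 ± 0.61 (adjusted p = 0.97).

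Of the 16 genes for immune defence of milk 2 rose, CRISP3 and CD14, against 1.06% of all genes. CRISP3, a secreted cysteine-rich protein, went from -4.92, -4.86, -5.67 and -2.09 to 2.50, 5.12, 3.59 and -3.69. Animals 1 to 3 lay far above the day -30 range, and animal 4 below its own value there. The gene rose by 6.27 ± 1.64 (adjusted p = 0.025). CD14, a receptor for bacterial lipopolysaccharide that milk also contains in soluble form, lay at -0.13, -0.39, 0.15 and -0.19 and then at 2.05, 3.25, 2.78 and 0.85. Its groups were apart, with a rise of 2.37 ± 0.51 (adjusted p = 0.00558). Without the array of animal 4 CCL28 and TLR2 also passed, at 1.26 and 1.39.

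Among 22 genes of involution and apoptosis 3 rose and 1 fell, against 1.06% of all genes higher and 2.7% lower. By the days of the scanner files 5 of the 22 rose and 1 fell. MMP9, a matrix metalloprotease, went from -4.06, -4.26, -4.08 and -4.31 to -3.00, -2.58, -2.53 and -1.20, with animal 4 the highest, a rise of 1.85 ± 0.35 (adjusted p = 0.00237). The lysosomal proteases CTSD and CTSB rose by 0.94 ± 0.19 (adjusted p = 0.00308) and 0.81 ± 0.20 (adjusted p = 0.0157), with groups apart. Of 17 immediate early and stress genes, which respond within minutes to handling and to signals, DUSP1 and IER2 rose, by 1.53 ± 0.35 (adjusted p = 0.00945) and 0.85 ± 0.21 (adjusted p = 0.0191). By the days of the scanner files 5 of the 17 rose and 1 fell.

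With all arrays the housekeeping lists held few calls, and some other settings gave more. Of 83 ribosomal protein genes 0 rose and 1 fell, RPL3L, a paralog of RPL3, by 1.42 ± 0.29 (adjusted p = 0.00362). The median of these 83 was 0.42 with all arrays, 0.76 without the array of animal 4 and -0.20 under quantile normalization. Quantile normalization called 15 of them lower and the brightness covariate 16, while 35 were called higher without the day +120 and +180 arrays of animal 4. MRPL19 was the call among 75 mitochondrial ribosomal genes, lower by -0.81 (adjusted p = 0.0324), and COX4I2 the call among 81 genes of oxidative phosphorylation. The 75 genes had 0 calls with no replicate block, median centring or normexp. Of the mitochondrial ribosomal genes 13 were lower with quantile normalization and 12 with brightness as a covariate, which also called 17 genes of oxidative phosphorylation lower. COX4I2, a subunit isoform of cytochrome oxidase, lay at 2.30, 2.19, 1.47 and 1.72 at day -30 and at -0.55, -1.03, -0.99 and 1.49 at day +120. Animal 4 lay within the range of the day -30 values and the other 3 below it, and the mean fell by 2.19 ± 0.44 (adjusted p = 0.00349). By the days of the scanner files 0 of the 81 genes were called, COX4I2 included.

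Of 38 proteasome subunits 2 fell, against 2.7% of all genes lower. Both are subunits of the immunoproteasome, which cuts peptides for MHC class I. PSMB10 went from 2.88, 3.01, 2.75 and 2.66 to 1.04, 1.20, 1.28 and 1.90, and PSMB9 from 3.10, 3.03, 3.29 and 2.88 to 2.08, 1.50, 1.65 and 2.45. The groups of both were apart, and the falls were by 1.47 ± 0.27 (adjusted p = 0.00177) and by 1.16 ± 0.24 (adjusted p = 0.00429). PSMB8, the third such subunit, was lower in each animal and just missed the threshold, with -0.78 ± 0.23 (adjusted p = 0.0514). Beside them, 16 of the 19 interferon response genes were lower and 0 passed (median -0.66), and without the array of animal 4, 3 were called lower, GBP5 (-1.99) among them, and 1 higher. By the days of the scanner files their median was 0.21, with 2 called higher and 2 lower. The 25 genes of the unfolded protein response and secretory pathway were all above 0 in difference (median 0.42) with 0 calls, and the 18 aminoacyl tRNA synthetases had 0 calls (median 0.11).

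Markers of cell types were read to see what else the biopsies held. The 11 luminal epithelial markers averaged 2.52 to 2.86 at day -30 and 2.16 to 3.31 at day +120, with 0 calls (median 0.11). Each was well above background on at least 1 array of both days. The members of every other marker list were too, so this does not identify the tissue. The 10 myoepithelial markers and the 13 stromal markers also had 0 calls. The stromal list averaged 3.49, 1.34, 3.58 and 3.38 in animals 1 to 4 at day +120, against 2.55 to 2.98 at day -30, so animal 2 was low. Of 11 endothelial markers PECAM1 rose by 0.82 ± 0.22 (adjusted p = 0.0322) and VWF by 1.19 ± 0.30 (adjusted p = 0.0198). VWF is 1 of 3 genes whose probes were called in opposite directions, so its direction is uncertain. Among 8 adipocyte markers CFD, the complement factor D of fat cells, rose by 0.84 ± 0.23 (adjusted p = 0.0304).

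The 14 T and NK cell markers were lower for 13 genes, with 0 calls and a median of -0.33. They averaged -0.76 to -0.43 at day -30 and -0.84, -1.54, -1.96 and 0.26 at day +120. The 8 B and plasma cell markers averaged -0.66 to -0.21 at day -30 and -0.36, -0.79, -1.52 and 0.66 at day +120. In both lists animal 4 was the highest of all 8 arrays, on the array where the milk proteins were lowest. Without it CD3D and CD2 were called lower, at -1.30 (adjusted p = 0.0445) and -1.16 (adjusted p = 0.0432). Summed on the linear scale, in multiples of the array's 75th percentile, the T and NK list came to 12.4 to 15.7 at day -30 and 5.50 to 24.9 at day +120. No marker of these lists was below background on all arrays of either day, and the part of these cells in the results of that array was not tested.

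Neutrophil markers were higher for 10 of 11 genes (median 0.99), and the call was in the other direction: PGLYRP1, a peptidoglycan-binding protein of granules, fell by 1.88 ± 0.39 (adjusted p = 0.00381). S100A12, a calgranulin, lay at -0.57, -0.31, -0.44 and -0.47 and then at 3.89, 0.04, 1.08 and 2.06. The groups were apart with animal 1 far above the rest, and the difference of 2.22 ± 0.85 did not pass (adjusted p = 0.14). The list averaged -0.22 in animal 1 at day +120 and between -3.04 and -2.14 on the other 7 arrays. Summed on the linear scale it came to 4.44 to 8.35 at day -30 and 5.53 to 43.9 at day +120, beside which the rise of CXCL3 stands. The part of these cells in that rise was not tested. Hemoglobin and ALAS2, the red cell list of 4, had 0 calls and spread over -5.60 to -0.20 among the day +120 arrays.

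**Figure D3:**
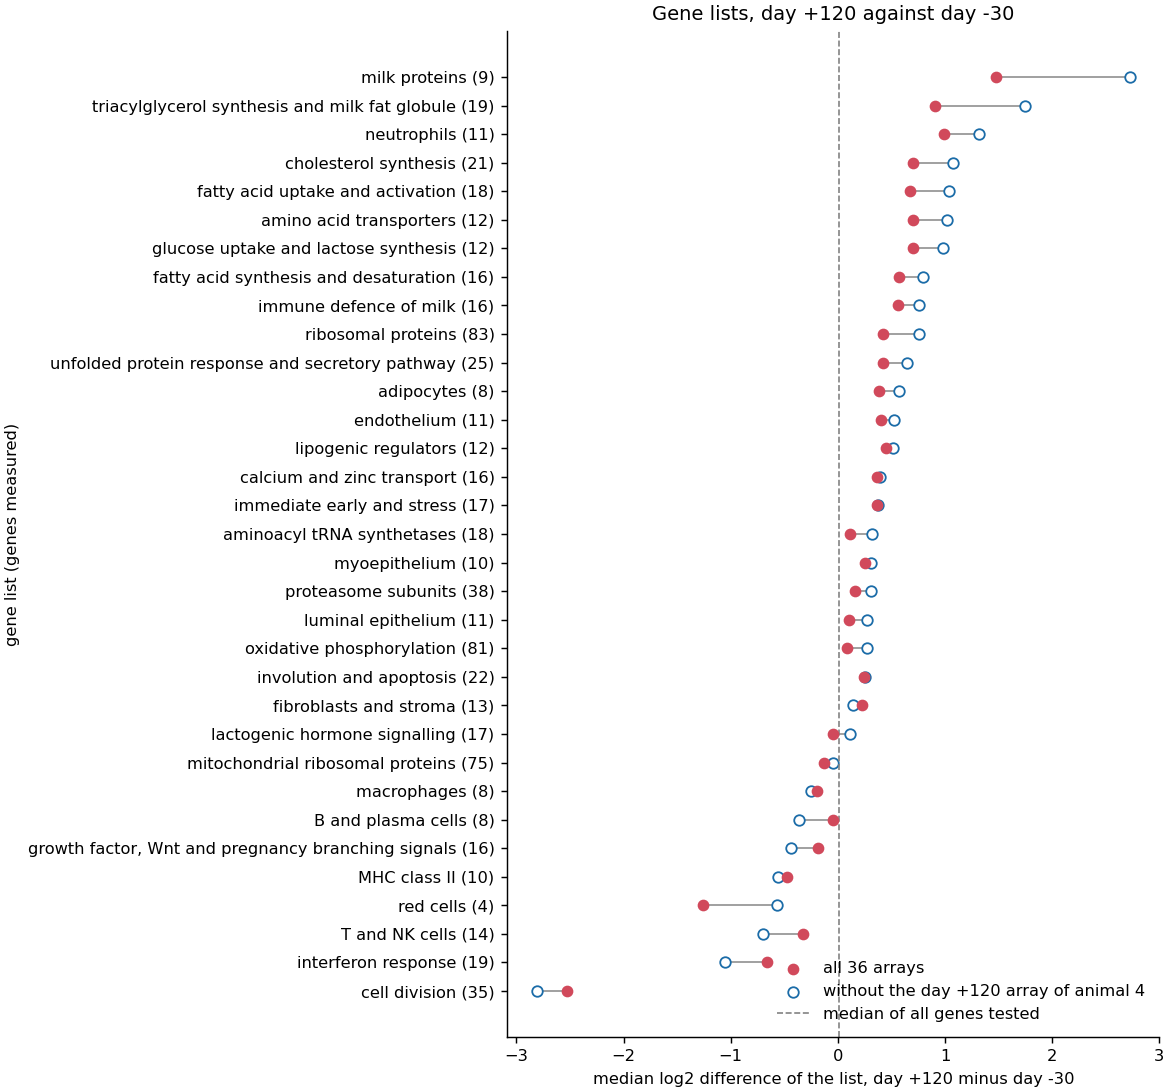
Median log2 difference, day +120 minus day -30, of each gene list, with all 36 arrays (filled) and without the day +120 array of animal 4 (open); the number of genes measured is in brackets. Cell division lies at -2.53 and moves to -2.81, while milk proteins move from 1.48 to 2.72.

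To see where day +120 differs from the rest of lactation, it was set against the mean of days +1, +15, +30, +60, +180 and +240, a comparison that uses no day -30 array. It called 23 of 20108 genes (0.114%), 11 higher (0.0547%) and 12 lower (0.0597%), and none of the 20 genes with the largest changes from day -30 was among them. In the 24 arrays of the other lactation days SLC29A4, a transporter of monoamines, ran from -7.18 to -5.52 with a median of -6.25 (a level, log2). Its day +120 values were -5.37, -5.33, -5.06 and -5.31, all above that range, and the dim probe was well above background on 3 of these 4 arrays. The difference was 1.07 ± 0.11 (adjusted p = 8.97e-07), while against day -30 it was 0.25 (adjusted p = 0.34). By the days of the scanner files the difference from the other lactation days was -0.51.

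WDR63, which encodes a dynein intermediate chain, ran from 0.34 to 2.73 on the 24 arrays with a median of 1.45. At day +120 it lay at -0.33, 0.24, -0.52 and -0.93, all below that range, a difference of -1.77 ± 0.22 (adjusted p = 4.32e-05). CHAD, the matrix protein chondroadherin, lay at -2.92, -3.01, -3.05 and -3.34 against -4.37 to -3.47, a difference of 0.80 ± 0.13 (adjusted p = 0.00781). The other called symbols with the highest differences were MAP1LC3C, an autophagy protein (2.81), the scaffold PDZK1 (2.21) and the carboxypeptidase CPZ (0.77). On the low side were MAGEB3 (-2.47), not well above background on any day +120 array, the endocytic adaptor NECAP1 (-1.15), the small GTPase RIT1 (-0.97) and RSBN1 (-0.95). For each of these other symbols, high or low, the day +120 values overlapped those of the 24 arrays. MAGEB3 lay between -8.28 and -6.70 at day +120 and between -7.96 and -6.54 at day +180. At day +240 it lay at -7.21, -7.81, -8.41 and -4.05. Each day lay on a slide of its own here too. Under the days of the scanner files 354 genes were called, 0 of them shared with the 23. Without the day +120 array of animal 4 the count was 22, 10 of them shared, and it was 8 without animal 1, 8 without animal 2, 1 without animal 3 and 28 without animal 4.

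The courses of these genes over the 9 days are given as values only, with no further test. RSPO1 averaged 2.21 ± 0.30 and 2.50 ± 0.15 (SD, n = 4) at days -30 and -15, -2.22 ± 1.06 at day +1 and -3.42 ± 1.73 at day +120. PTHLH averaged -0.78 ± 0.47 at day -30, 0.80 ± 1.53 at day +1, 4.44 ± 0.46 at day +15 and 3.78 ± 1.30 at day +120. ELP took another course: it averaged 3.58 ± 1.25 at day +1 and 4.52 ± 0.27 at day +15, 1.88 ± 0.56 at day +60 and -2.14 ± 0.90 at day +120. KIF20A averaged -1.89 ± 0.48 at day -30, -3.65 ± 0.64 at day +1 and -5.65 ± 1.23 at day +120. CSN2 had an SD of 4.53 at day +120 and of 4.31 at day +180, and the arrays of animal 4 were the lowest at both.

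**Figure D4:**
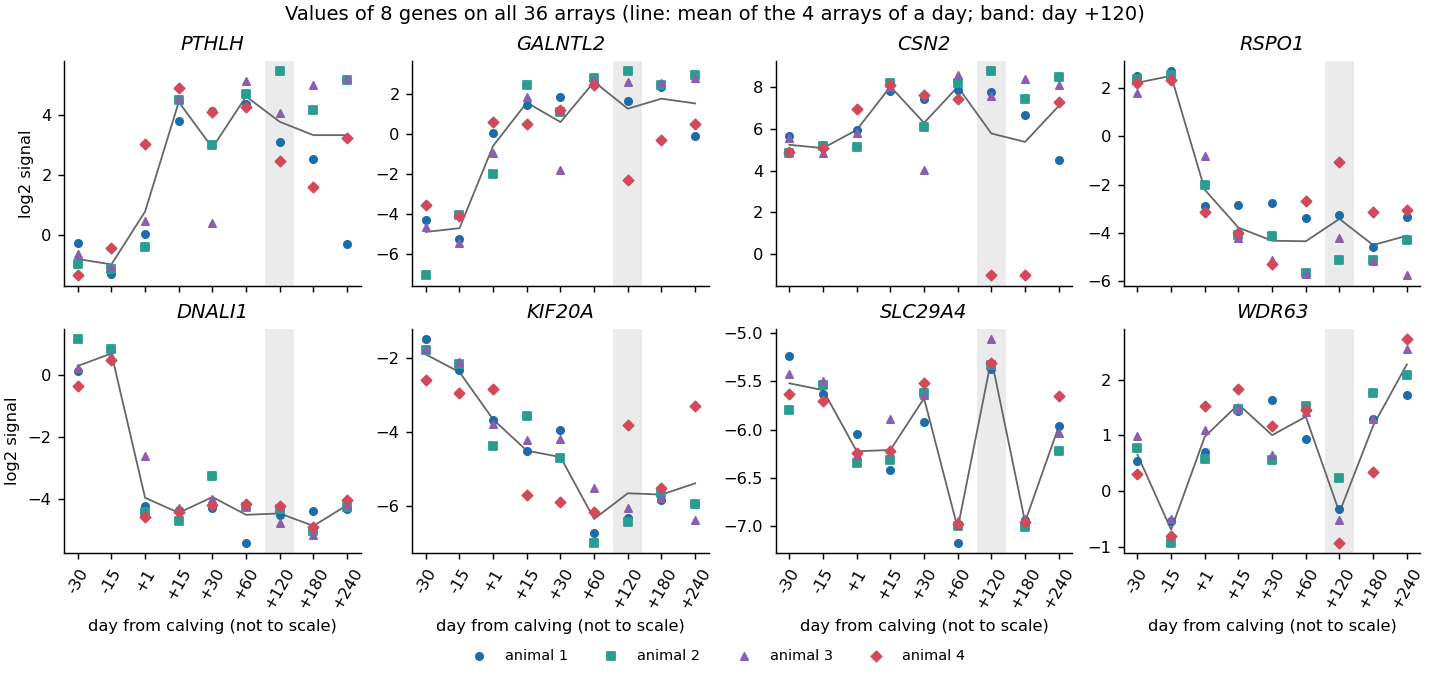
Log2 signal of 8 genes on all 36 arrays by day from calving; points are animals, the line joins the mean of the 4 arrays of a day, and the grey band marks day +120. RSPO1 and DNALI1 are low from day +1 on, CSN2 has the arrays of animal 4 near -1 at days +120 and +180, and SLC29A4 and WDR63 leave the range of the other lactation days at day +120.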

How the data were processed

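RNA of 36 mammary biopsies, 4 animals at 9 days, was read on 1-colour cattle arrays. Per the file headers, Feature Extraction 10.7.3.1 gave each spot a deposited processed intensity, with background subtracted, and marks of another kind (0 or 1) for spots well above background. Per the labels, the deposited log2 values were made by the authors in GeneSpring 12 and tested in JMP Genomics 7. Setting each column against all scanner files showed that it equals the log2 processed signal of 1 file less that file's 75th percentile, within 0.001 for at least 99.98% of probes, which settles scale, centring and direction. Background marks were taken from the file so matched. The table holds 34997 of 43653 probes, 0 spots were saturated, and the number of arrays limits the precision.

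The probe with the highest mean over 36 columns stood for each gene name, kept when a minimum of 3 arrays of some day exceeded background clearly (20108 of 20110 genes). Symbols are those of the array design, and 11573 of 13424 are also in the yak RefSeq gene table (Bosgru_T2T1.0). The linear model took day as fixed effect (limma 3.58.1 with statmod 1.5.0, R 4.3.3) and animal as random block (consensus correlation 0.0531), with the spread shared by all days, two-sided, Benjamini-Hochberg over all genes, called at adjusted p under 0.05. Repeat biopsies pair by animal per the labels. Deviations from the day mean correlated at 0.152 within animals and at -0.0509 between them on average, and within animals 1 to 4 at 0.34, 0.0937, 0.22 and 0.232 between day -30 and day +120. The 4 deviations of a day cancel out, which makes the value between animals negative when the one within them is positive. The value between animals is therefore no separate evidence of pairing. Position on the slide goes with the animal.

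In simulated data at this size limma recovered 27 of 100 changes of 1 and 82 of 100 changes of 2 (log2), and called 6 unchanged genes. The simulated noise was normal and independent, with the mean within-day spread of each gene. It held no animal effect, no link between genes and no array that stands apart. Recovery and false calls on the real arrays may therefore differ. Named were the 10 largest called rises and falls with 1 sign in all animals, up to 6 genes of each list, a set of milk, growth and mitosis genes (MKI67 was not analysed here), and the 5 highest and 5 lowest symbols against the other lactation days. Some list members named by that rule are not reported here. Members and the 33 lists were chosen with earlier results of these data known. Alternatives were the block, the arrays fitted, normalization, filter, probe averaging, brightness, the scanner files' days and leaving out each animal, and, chosen after seeing the data, leaving out arrays of animal 4. Figures used matplotlib 3.10.9.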

Additional observations from a re-analysis of the deposited data

Results flagged for a closer look

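In 210 groups of 4 arrays checked, 22 held an array whose gap to the nearest of the other 3 was most of the range of the 4 (Dixon's 95% limit), and chance flags about 1 in 20 such groups. The day +120 array of animal 4 was the one apart for RRAD (-0.42), CSN1S1 (0.76), CSN2 (-0.98), LALBA (-4.27) and BTN1A1 (-8.03), where it was the lowest. It was the highest for the mitosis genes KIF20A (-3.81), CDC20 (-1.58), CCNA2 (-2.19) and ASPM (-4.15). Averages of whole lists on this array were apart too, at -0.68 for milk proteins, 0.69 for glucose uptake and lactose synthesis, and -2.12 for cell division.

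At day +120 animal 2 was apart for SLC38A2 (2.24, the highest) and for the mean of the stromal markers (1.34, the lowest), and animal 1 for the mean of the neutrophil markers (-0.22, the highest).

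At day -30 animal 4 was apart for PAEP (4.59), LPL (-0.05) and BUB1 (-1.60), animal 2 for LALBA (-0.31) and the mean of the fatty acid uptake list (0.15), animal 1 for CD36 (2.26) and animal 3 for ESR1 (-5.84). The day -30 values of LPL and ESR1 were otherwise close together, so a small gap sufficed there.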

How the results depend on the processing

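Against day -30, the 756 calls became 3 with the 8 compared arrays alone and a fixed replicate block (3119 genes at an unadjusted p under 0.05), 417 with normexp, 1204 with quantile normalization, 2013 with brightness as a covariate and 2099 by the scanner files' days. They became 1961 without the day +120 array of animal 4, 2665 without its day +120 and +180 arrays, and 37 to 1375 without 1 animal (37 without animal 3, 200 without animal 1, 221 without animal 2). The share of higher calls was 28.31% and became 37.89% with normexp, 42.59% by the scanner files' days, 43.64% without animal 4 and 48.50% without its day +120 array. Pairing by animal mattered less: 618 calls came with no replicate block and 899 with a fixed one. The 23 calls against the other lactation days became 11 with no replicate block, 8 with the compared arrays alone and a fixed replicate block, 2 with normexp, 318 with brightness, 354 by the scanner files' days and 1 to 28 without 1 animal. Normexp moved the median of all genes to 0.14. The causes were not tested, except that settings without animals or arrays hold fewer samples.

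Signs turned for genes called in neither setting, with 5 exceptions: RSBN1, MAP1LC3C and SLC29A4 had been called against the other lactation days, and FASN and ELF5 were called lower only with brightness (limma adjusted p = 0.0461 and 0.0286). With brightness, differences from day -30 were CSN1S1 -1.50, CSN1S2 -0.57, CSN2 -2.50, CSN3 -0.0705, LALBA -2.42, PAEP -1.59, LPL -0.34, FABP3 -1.08, CD36 -0.19, ACACA -0.91, FASN -0.99, SCD -0.28, XDH -0.46, INSIG1 -0.23, THRSP -0.0635, ELF5 -0.82, IGFBP5 0.53, MFGE8 -0.32, CIDEA -0.20 and ACSL1 -0.0357. By the scanner files' days they were THRSP -0.79, SREBF1 0.0401 and IGFBP5 0.83, and differences from the other lactation days were RSBN1 0.31, MAP1LC3C -0.0446 and SLC29A4 -0.51. BTN1A1 was 0.73 as the mean of all probes, IGFBP5 0.10 with normexp, and CSN2 -1.25 and PAEP -0.87 with quantile normalization. Without the day +120 array of animal 4, BTN1A1 was 2.49, THRSP -0.0287, SREBF1 0.26 and PRLR 0.18, and without its day +180 array as well 2.63, -0.0232, 0.29 and 0.20. Leaving out 1 animal or that array gave ranges of -2.43 to 2.49 for BTN1A1, -0.58 to 2.72 for CSN2, -0.60 to 4.42 for LALBA, -0.12 to 2.17 for PAEP, -0.0275 to 1.03 for ACACA, -0.22 to 0.83 for THRSP, -0.25 to 0.35 for IGFBP5, -0.58 to 0.26 for SREBF1 and -0.31 to 0.23 for PRLR. Dim probes limit the falls that end near background.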
